A study of Mus musculus with 30 samples.

Results

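The genes described here are 36 genes of fatty acid oxidation and ketone metabolism, measured by RNA-seq in the mouse colon. They were taken by name as a fixed list that covers mitochondrial and peroxisomal beta-oxidation, ketone synthesis and targets of the nuclear receptor Ppara, and all 36 were found among the 46078 genes of the count table. The rule uses no measured value, but the list was chosen with earlier results of these data known. Colon tissue came from C57BL/6J mice of both sexes that were kept for 13 weeks on a control diet (CD) or a high-fat diet (HFD). The 5 groups had 6 mice and 6 libraries each. Females on CD, females on HFD, males on CD and males on HFD made up 4 of them, and the fifth was males on HFD that received estradiol (E2) at 0.5 mg/kg in 9 intraperitoneal injections towards the end of the diet. The others received vehicle in the same way. The females were not ovariectomized, no females given E2 are among these libraries, and the labels give no ages.

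Beta-oxidation shortens fatty acids by repeated cycles of dehydrogenation, hydration, a second dehydrogenation and thiolysis, and feeds electrons to the respiratory chain. Long chains enter mitochondria through the carnitine shuttle, while peroxisomes shorten very long and branched chains first. Ppara is activated by fatty acids and raises many of these genes during fasting or fat feeding, best known from the liver, and ketone bodies are made from the acetyl-CoA that the pathway yields. Colonocytes are known for burning fatty acids, chiefly the short-chain butyrate made by bacteria.

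Values are given as TPM (a share of the transcripts of a library, scaled by gene length), as the lowest, the median and the highest of 6 mice. Differences are log2 fold changes with their SE from edgeR's quasi-likelihood test on the raw counts, with Benjamini-Hochberg adjustment over all genes tested. The study threshold asks for a log2 fold change beyond 0.4, up or down, at an unadjusted p-value under 0.05. A gene passes the adjusted threshold with an adjusted p-value under 0.05. Of the 36 genes, 35 passed the filter on low counts in every comparison. The exception was Acaa1b, a peroxisomal thiolase, with 0 to 4 counts in each library. Its reads can be shared with the near-identical Acaa1a, so that both are uncertain, and in the 5 comparisons of a pair of groups made here the exact permutation test of its log2 CPM gave no p-value under 0.197.

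Counts on genes ranged from 8667177 to 17243712 per library, and the 36 genes together took 0.183% to 0.241% of them. Genes of the mitochondrial genome took 26.1% to 38.0%. Colonocyte markers such as Car1 and Vil1 were high in every group, except Cdx2 and Slc9a3, which were near 0, and of 5 liver genes, which summed to 13.8 to 39.2 TPM, Ttr made up nearly all, while Alb, Apoa1 and Serpina1a were at or near 0. Genes of stratified squamous epithelium, such as Krt5 and Krt13, summed to more than 100 TPM in 6 HFD libraries (replicates 1, 3, 4 and 5 of the females and 2 and 4 of the males). In the other 24 libraries the highest sum was 14.4 TPM. Since whole tissue was sequenced, fewer cells of a type and less RNA per cell cannot be told apart.

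The promoters of 2 of the genes that passed the study threshold are shown, so that the sequence before the start of a gene can be read beside its response. Both come from the RefSeq promoter table for GRCm38.p6, read in the direction of the gene, and stop before the gene model of the deposited files. Phyh lies on the plus strand (sequence chr2:4918746-4918995, gene chr2:4919019-4938730) and Pdk4 on the minus strand (sequence chr6:5496310-5496528, gene chr6:5483351-5496309). Capitals mark CCAAT on either strand:
Phyh: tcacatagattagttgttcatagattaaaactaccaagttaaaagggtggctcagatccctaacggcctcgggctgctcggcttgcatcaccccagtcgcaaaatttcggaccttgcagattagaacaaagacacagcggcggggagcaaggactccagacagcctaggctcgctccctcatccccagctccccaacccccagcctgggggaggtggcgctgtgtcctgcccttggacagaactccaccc
Pdk4: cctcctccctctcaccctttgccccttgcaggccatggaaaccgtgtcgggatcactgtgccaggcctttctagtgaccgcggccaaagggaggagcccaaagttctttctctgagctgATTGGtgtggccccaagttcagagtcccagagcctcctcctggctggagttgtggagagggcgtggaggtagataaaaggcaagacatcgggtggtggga

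The table held entries for 31 of the 36 genes. Decr1, Crat, Hsd17b4, Angptl4 and Acaa2 had none. In the 250 bases before the start, CCAAT was present on either strand in 13 of the 31 (41.9%), compared with 37.5% of the 27025 genes of the table. The half-site of nuclear receptors, AGGTCA, was present in 3 of the 31 (9.68%; Acadm, Acadvl and Cpt1a), compared with 15.8% of all genes. The repeat of that half-site bound by Ppara, AGGTCANAGGTCA, which holds AGGTCA at each end, was searched on both strands with up to 2 mismatches. It was present in 1 of the 31 (3.23%), compared with 3.72% of all genes. The match was in Etfa, -77 bases from its start on the opposite strand, and is shown as read there:
Etfa: AGGGCAAAGGTAA

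**Figure D1:**
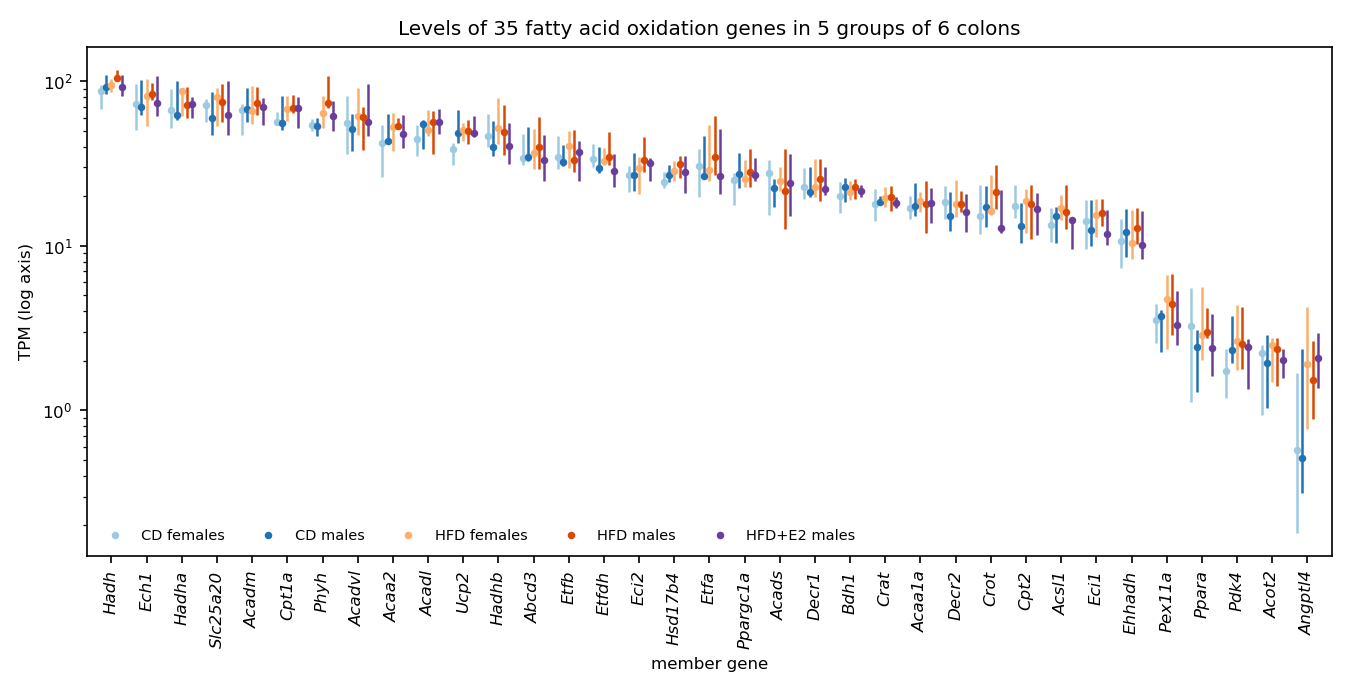
TPM on a log axis of the 35 genes tested, ordered by their median over 30 libraries. Points are the medians and lines the lowest to highest of 6 mice in each of the 5 groups. Most genes lie between 10 and 100 TPM with overlapping groups, and Angptl4 at the right end has the widest spread.

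The summed level of the pathway was set side by side for the groups. The 36 genes summed to 902 to 1523 TPM per library, with medians of 1123 and 1255 in females on CD and HFD, 1105 and 1316 in males on CD and HFD, and 1208 in the males given E2. These ranges overlapped in every pair of groups. Between males on CD and HFD the overlap came from replicate 1 of CD males alone, at 1440 TPM. The next CD male was at 1140 TPM and the lowest HFD male at 1165 TPM. Of the genes, 30 had a median over 10 TPM, and for 32 of the 35 tested the highest of the 5 group medians was less than 1.5 times the lowest. The exceptions were Pdk4 (1.51 times), Crot (1.65 times) and Angptl4 (4.06 times). The highest group median was in HFD males for 18 genes and in HFD females for 12. The lowest was in CD males for 13 and in CD females for 12. This order was not counted over all genes, and the order of the groups differed by measure. As a share of counts, the 36 genes had medians of 0.203% and 0.218% in females on CD and HFD. The medians were 0.187% and 0.210% in males on CD and HFD, and 0.232% in the males given E2. Medians over all 30 libraries are given below by the role of each gene.

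Activation and the carnitine shuttle were led by Slc25a20, the carrier that moves acylcarnitines across the inner membrane, at 69.8 TPM, and by Cpt1a, the rate-limiting transferase of the outer membrane, at 64.6 TPM. Crat, which makes acetylcarnitine, was at 18.7 TPM, the inner membrane transferase Cpt2 at 16.6 TPM and the long-chain acyl-CoA synthetase Acsl1 at 14.95 TPM. Cpt1a was above Cpt2 in all 30 libraries, since its lowest value (50.9 TPM) exceeded the highest of Cpt2 (23.4 TPM). Among the acyl-CoA dehydrogenases, which start each cycle, medium-chain Acadm was at 68.5 TPM, very-long-chain Acadvl at 56.1 TPM, long-chain Acadl at 51.3 TPM and short-chain Acads at 24.2 TPM. Acadvl ranged from 35.9 to 96.8 TPM and overlapped with Acadm and Acadl. Their electrons pass to the flavoprotein made of Etfa (27.9 TPM) and Etfb (34.3 TPM) and on to Etfdh (31.9 TPM), which hands them to ubiquinone. These 3 genes lay close together, with overlapping ranges.

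The most abundant of the 36 was Hadh, the hydroxyacyl-CoA dehydrogenase for medium and short chains, at 94.6 TPM (68.3 to 117). The subunits of the mitochondrial trifunctional protein, which handles long chains, were at 70.3 TPM for Hadha and 45.1 TPM for Hadhb, and the thiolase Acaa2, which splits off acetyl-CoA, was at 51.5 TPM. Enzymes that prepare double bonds for oxidation were led by the isomerase Ech1 at 76.0 TPM. The isomerases Eci2 and Eci1 were at 30.3 and 13.7 TPM, the mitochondrial reductase Decr1 at 22.7 TPM and the peroxisomal reductase Decr2 at 17.5 TPM. In the peroxisome, Phyh, which starts the alpha-oxidation of the branched phytanic acid, was the highest at 59.8 TPM. The membrane transporter Abcd3 was at 34.6 TPM, the bifunctional enzymes Hsd17b4 and Ehhadh at 27.9 and 11.3 TPM and the thiolase Acaa1a at 18.0 TPM. Crot, the transferase that makes medium-chain acylcarnitines for export to mitochondria, was at 17.0 TPM, and Pex11a, which promotes peroxisome division, at 3.73 TPM.

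The single ketone body enzyme of the list was Bdh1, which interconverts acetoacetate and beta-hydroxybutyrate, at 21.5 TPM (15.8 to 25.8). The regulators and targets of Ppara spanned a wide range. Ppara itself was at 2.75 TPM, while its coactivator Ppargc1a was at 26.6 TPM with ranges that did not overlap (the lowest library of Ppargc1a, at 17.8 TPM, was above the highest of Ppara, at 5.61 TPM). The mitochondrial carrier Ucp2 was at 47.4 TPM. Pdk4, the kinase that shuts off pyruvate dehydrogenase and so spares glucose, was at 2.31 TPM. The acyl-CoA thioesterase Acot2 was at 2.13 TPM, and Angptl4, a secreted inhibitor of lipoprotein lipase, was at 1.47 TPM. Acaa1b had a median of 1.13 TPM, although 4 was its highest count in a library.

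HFD was first compared with CD in females. Of the 35 genes, 2 passed the study threshold, Angptl4 and Pdk4, both higher on HFD. Over all 15061 genes tested 3.67% passed it, 2.95% in that direction. With edgeR none of the 35 passed the adjusted threshold (lowest adjusted p = 0.412), which 0.0199% of all genes did. DESeq2 called Angptl4 at an adjusted p of 0.0170. The shares of all genes given here and below are those of edgeR, and none is given for DESeq2. Of the 35, 4 had an unadjusted p-value under 0.05, all higher, against 5.68% of all genes (4.15% higher). The median log2 fold change was 0.07, beside 0.00 over all genes, with 23 genes above 0 and 12 below. Of all genes, 50.3% lay above 0.

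Angptl4 (chr17:33773750-33781575, minus strand) was at 0.181, 0.572 and 1.68 TPM in CD females and at 0.773, 1.91 and 4.26 TPM in HFD females. The groups overlapped, and the counts behind these values were low, 5 to 25 on CD and 22 to 78 on HFD. Its log2 fold change was 1.48 (SE 0.37, adjusted p = 0.412). Pdk4 was at 1.19, 1.75 and 2.36 TPM on CD and at 1.76, 2.64 and 4.37 TPM on HFD. Of the HFD females, 3 lay within the CD range, and the log2 fold change was 0.50 (SE 0.19, adjusted p = 0.671). Ucp2 was at 31.0, 38.7 and 42.1 TPM on CD and at 43.2, 50.2 and 55.5 TPM on HFD. The groups did not overlap in TPM but did in log2 CPM after TMM scaling, where 0.212% of all genes tested did not overlap. The log2 fold change of Ucp2 was 0.34 (SE 0.10, adjusted p = 0.496), below the fold change minimum of the study.

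The HFD females with the highest Angptl4 and Pdk4 were among those with squamous epithelium genes. The 4 squamous genes that could be tested in females were all higher on HFD (study threshold), with a median log2 fold change of 5.74. Without the 4 HFD females over 100 TPM of squamous genes, the log2 fold change of Angptl4 was 0.68 and that of Pdk4 0.11. Neither gene passed the study threshold. That fit kept only replicates 2 and 6 of the HFD females, with Angptl4 at 1.38 and 0.773 TPM (30 and 22 counts). A missed threshold there cannot be told apart from the loss of mice. Fat tissue markers also lay higher, at 51.6 to 112 TPM in sum in CD females and 70.2 to 158 TPM in HFD females, and 2 of the 9 tested passed the study threshold, Car3 (log2 fold change 1.21) and Plin4 (0.47). The largest part of these sums was Pck1, at 34.1 to 78.0 TPM in HFD females, with a log2 fold change of -0.22, and Car3 was at 7.10 to 50.1 TPM. Their part in the values of Angptl4, which adipocytes express strongly, was not tested beyond a fit with the adipocyte score as a covariate, in which its log2 fold change was 0.89. Among the other adipocyte markers, Plin1 was at 0 to 1.08 TPM and Adipoq at 0.455 to 4.27 TPM in HFD females. Angptl4 itself was at 0.773 to 4.26 TPM there.

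**Figure D2:**
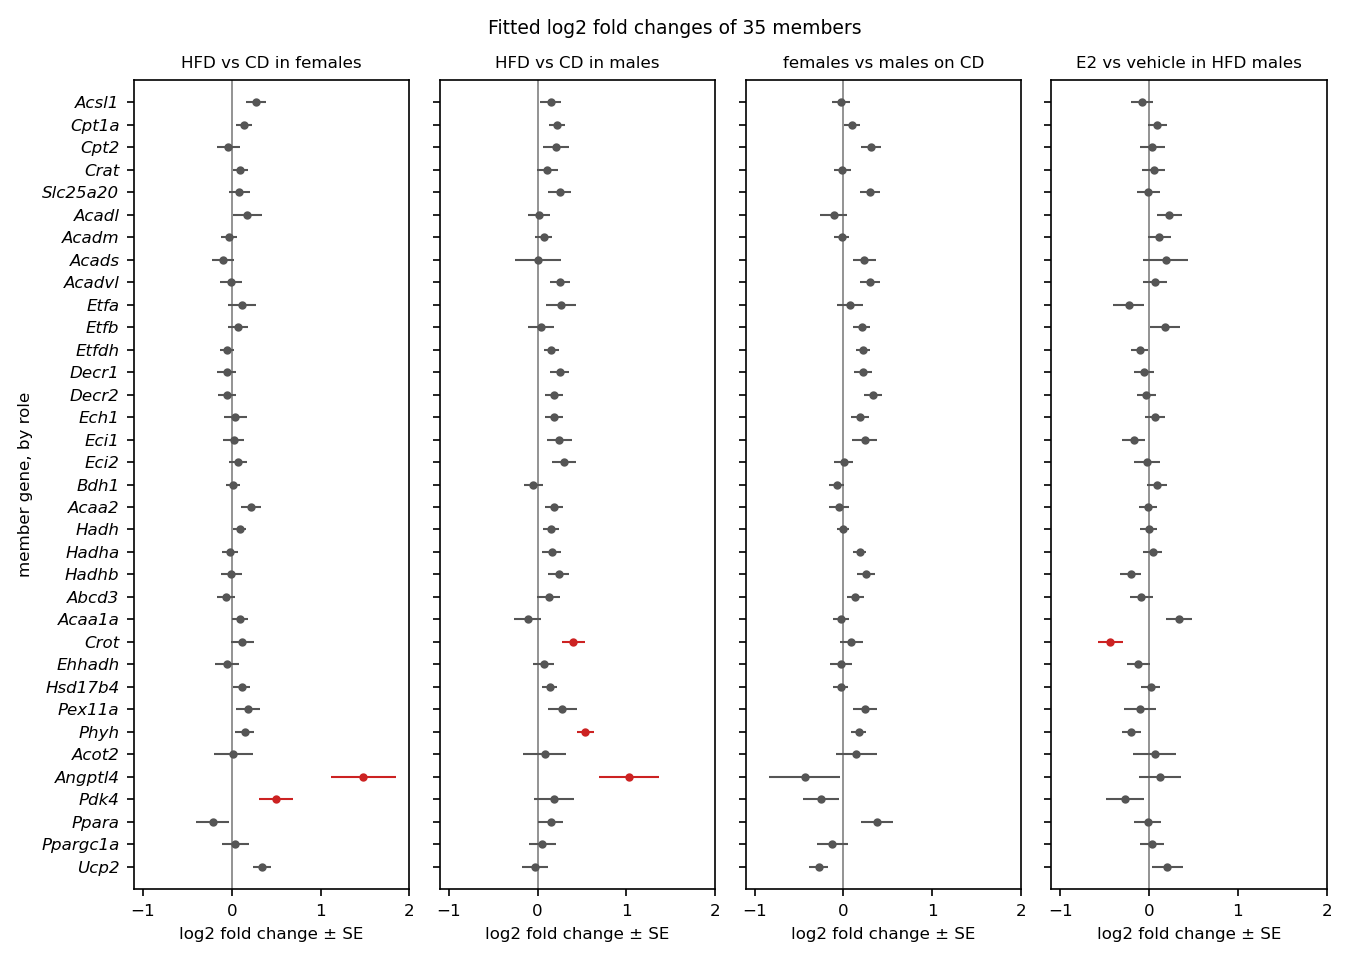
Log2 fold change ± SE of the 35 genes in 4 comparisons of 6 with 6 libraries, ordered by role. Red marks genes past the study threshold. Angptl4 stands at 1.48 in females and 1.03 in males on HFD, Phyh and Crot stand out in HFD males, and Crot is the gene that is lower with E2.

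In males, 3 of the 35 genes passed the study threshold, Phyh, Crot and Angptl4, all higher on HFD, beside 2.9% of all 14991 genes (1.25% higher). None passed the adjusted threshold, and neither did any other gene (0%) with edgeR. With an unadjusted p-value under 0.05 there were 7 of the 35, all higher, beside 6.03% of all genes (3.18% higher). DESeq2 called Phyh at an adjusted p of 0.000305, with no share of all genes to set beside it here. The median log2 fold change was 0.16, beside -0.01 over all genes, and 32 of the 35 lay above 0, where 48.7% of all genes did. The 3 below 0 were Acaa1a, Bdh1 and Ucp2, at -0.11, -0.05 and -0.03. The 12 smooth muscle genes had a median of -0.30 in this comparison, with 0 higher and 1 lower by the study threshold. Their part in the median of the 35 genes was not tested.

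Phyh was at 46.3, 53.3 and 59.8 TPM in CD males and at 68.4, 74.0 and 107 TPM in HFD males. All HFD males lay above all CD males, both in TPM and in log2 CPM after TMM scaling. The groups of 0.354% of all genes tested did not overlap in log2 CPM. The log2 fold change of Phyh was 0.54 (SE 0.10, adjusted p = 0.149). Without the 2 HFD males over 100 TPM of squamous genes it was 0.58. Phytanic acid comes from the chlorophyll of plants through the fat and milk of ruminants, and Phyh is the enzyme that is lost in Refsum disease.

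Crot (chr5:8966033-8997324, minus strand) was at 12.9, 17.3 and 23.2 TPM in CD males and at 16.6, 21.3 and 30.8 TPM in HFD males. Of the HFD males, 4 lay within the CD range, and the log2 fold change was 0.40 (SE 0.13, adjusted p = 0.704). Crot varied against smooth muscle. Over the 30 libraries, after the mean of each group was subtracted, its log2 CPM had a correlation of -0.76 with the mean of 12 smooth muscle genes, a description over libraries that share tissue composition. With that mean as a covariate, the log2 fold change of Crot in males was 0.23 and it no longer passed the study threshold. Angptl4 was at 0.315, 0.511 and 2.37 TPM in CD males and at 0.893, 1.54 and 2.63 TPM in HFD males. A pair of CD males reached into the HFD range, and the log2 fold change was 1.03 (SE 0.34, adjusted p = 0.704). Of the squamous genes 2 of the 3 tested were higher in HFD males (study threshold, median log2 fold change 2.599), and of the adipocyte genes 2 of the 7 tested were higher and 1 lower, with sums of 47.4 to 109 TPM on CD and 75.3 to 211 TPM on HFD. The log2 fold change of Angptl4 was 1.01 without the 2 HFD males over 100 TPM of squamous genes and 1.23 with the adipocyte score as a covariate.

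**Figure D3:**
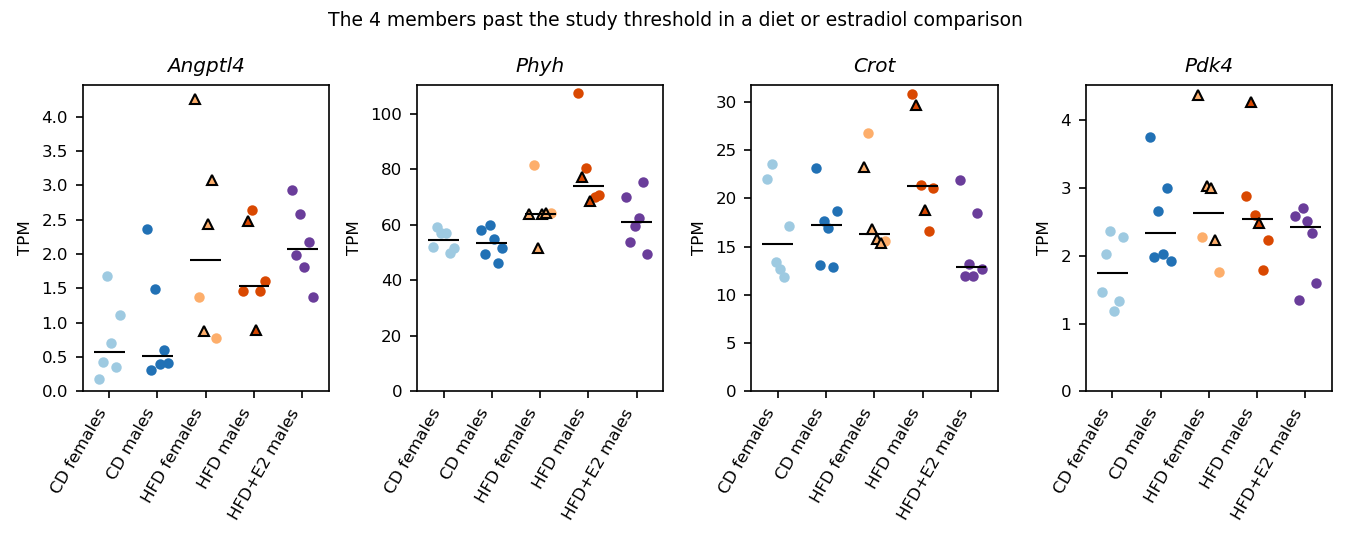
TPM of Angptl4, Phyh, Crot and Pdk4 in each of the 30 libraries, in panels with axes from 0. Points are libraries, horizontal lines are group medians, and triangles with black edges are the 6 HFD libraries with more than 100 TPM of squamous epithelium genes. Triangles hold the 3 highest Angptl4 values of HFD females, whereas Phyh of all HFD males is above that of all CD males.

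HFD and CD were then compared over both sexes in the 24 libraries of the vehicle-treated mice, with sex as a term. Angptl4 rose on HFD and was the single gene of the 35 past the adjusted threshold with edgeR, beside 0.418% of all 15800 genes (0.373% higher). Its log2 fold change was 1.25 (SE 0.26, adjusted p = 0.0300). DESeq2 called Angptl4 and Phyh (adjusted p = 0.00109 and 0.00842), but its share of all genes called is not given here. With edgeR Angptl4 was also the single gene past the study threshold, beside 2.71% of all genes (2.13% higher). The call was lost without the HFD libraries that hold squamous epithelium genes. Without those 6 the log2 fold change of Angptl4 was 0.90 (adjusted p = 0.432), in a fit with fewer HFD mice. With the adipocyte score as a covariate it was 1.07 (adjusted p = 0.215). A stricter filter, at least 10 counts in every library, left Angptl4 untested. The call was also lost with the replicate number as a block, and the values of that fit are in the closing section. When 1 library was left out, 18 of the 24 fits still called it at the adjusted threshold (adjusted p from 0.0140 to 0.0622), and the call was lost without replicate 2, 3 or 5 of CD females, 1 or 4 of HFD females or 2 of HFD males.

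Phyh moved the other way when these libraries were left out. Over both sexes its log2 fold change was 0.34 (SE 0.08, adjusted p = 0.0507), and without the 6 libraries it was 0.48 (adjusted p = 0.0265). In HFD females Phyh was at 51.8, 64.0 and 81.4 TPM, compared with 49.8, 54.6 and 59.2 TPM in CD females, and 1 of the 6 lay within the CD range. Cpt1a, next by p-value, had a log2 fold change of 0.18 (SE 0.06, adjusted p = 0.399). It was at 54.7, 56.7 and 64.9 TPM in CD females, 50.9, 55.9 and 81.4 TPM in CD males, 57.7, 68.2 and 81.8 TPM in HFD females and 64.4, 68.7 and 83.0 TPM in HFD males. The HFD medians were the higher ones in each sex, but the ranges overlapped.

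Over both sexes 11 of the 35 genes had an unadjusted p-value under 0.05, all higher on HFD, beside 5.9% of all genes (3.87% higher). They were spread over the shuttle (Cpt1a and Acsl1), the mitochondrial cycle (Acaa2 and Hadh) and the enzymes for unsaturated fatty acids (Eci2). The others were peroxisomal (Phyh, Crot, Pex11a and Hsd17b4) or targets of Ppara (Angptl4 and Pdk4). The median log2 fold change was 0.11, beside 0.00 over all genes, and 31 genes lay above 0, where 49% of all genes did. By role it was 0.17 for the 5 genes of activation and the shuttle, 0.12 for the 7 peroxisomal genes, 0.12 for the 4 genes of hydration and thiolysis, 0.11 for the 5 genes for unsaturated fatty acids, 0.10 for the 6 regulators and targets, 0.06 for the 4 acyl-CoA dehydrogenases and 0.05 for the 3 genes of electron transfer, and Bdh1, the ketone body enzyme, was at -0.02. Skeletal muscle genes also moved with HFD (6 of the 7 tested were higher by the study threshold, with sums of 9.12 to 187 TPM in HFD females, 13.1 to 436 TPM in HFD males and 9.79 to 132 TPM on CD), and their part in the values of the 35 genes was not tested.

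The response to HFD was set against sex by an interaction term. None of the 35 genes passed either threshold, nor the adjusted threshold with DESeq2, and 1 had an unadjusted p-value under 0.05. The study threshold was passed by 5.18% of all 15800 genes, the adjusted threshold by 0% and an unadjusted p-value under 0.05 by 6.75% (2.47% lower). That gene was Phyh, whose log2 fold change on HFD was lower in females than in males by a difference of -0.40 (SE 0.14, adjusted p = 0.630). Decr1 (-0.32, adjusted p = 0.733) and Ucp2 (0.37, adjusted p = 0.736) followed. The median over the 35 was -0.11, beside 0.01 over all genes, and 26 lay below 0 and 9 above. Of all genes, 51.1% lay above 0. The 12 smooth muscle genes had a median of 0.51 in this term, with 5 higher and 0 lower by the study threshold. Their part in the median of the 35 genes was not tested.

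Females were compared with males on each diet. On CD none of the 35 genes passed the study threshold, beside 9.15% of all 14922 genes, and none the adjusted threshold (2.92% of all genes) with edgeR or DESeq2. The 9 genes with an unadjusted p-value under 0.05 (14.8% of all genes, 6.18% higher and 8.61% lower) were 8 that were higher in females (Decr2, Etfdh, Cpt2, Slc25a20, Acadvl, Hadhb, Hadha and Decr1) and Ucp2, which was lower. Decr2 was at 14.5, 18.5 and 23.0 TPM in CD females and 12.3, 15.2 and 21.3 TPM in CD males, with a log2 fold change of 0.33 (SE 0.10, adjusted p = 0.0953). Etfdh, at 29.98, 33.9 and 41.8 TPM and 27.8, 29.8 and 40.1 TPM, had a log2 fold change of 0.22 (SE 0.08, adjusted p = 0.156). Cpt2, at 14.7, 17.4 and 23.4 TPM and 10.4, 13.1 and 18.3 TPM, had 0.32 (SE 0.11, adjusted p = 0.173).

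The ranges overlapped in each of these genes. The highest CD male of all 3 was replicate 1, whose sum over the 36 genes was 1440 TPM, while the next CD male was at 1140 TPM. Without that male, Cpt2 and Decr2 passed the adjusted threshold (adjusted p = 0.0163 and 0.0345). Each did so in 1 of the 12 fits without 1 library, and the share of all genes called there is not given. Smooth muscle genes moved with this comparison. All 12 were lower in CD females (study threshold, 7 past the adjusted threshold), with sums of 2584 to 4011 TPM in CD females and 4090 to 6770 TPM in CD males. With the smooth muscle score as a covariate the log2 fold change of Cpt2 turned to -0.03 and that of Decr2 was 0.14.

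On HFD no difference between the sexes passed a threshold in these genes. None of the 35 passed the study threshold (3.09% of all 15179 genes), the adjusted threshold (0.0988%) or an unadjusted p-value under 0.05 (5.09%), and DESeq2 called none at the adjusted threshold. The lowest p-values were those of Phyh, Eci2 and Crot, with log2 fold changes of -0.23, -0.23 and -0.20 (adjusted p = 0.872 for each). The values of all 35 lay between -0.23 and 0.23, with a median of 0.01 and a median SE of 0.13.

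E2 was compared with vehicle in HFD males. Crot was the single gene past the study threshold (5.87% of all 15010 genes, 3.24% lower), and none passed the adjusted threshold (0.00666% of all genes) with edgeR or DESeq2. With E2 Crot was at 11.97, 12.9 and 21.9 TPM, compared with 16.6, 21.3 and 30.8 TPM with vehicle, and 4 of the 6 mice given E2 lay below all vehicle-treated mice. The log2 fold change was -0.44 (SE 0.14, adjusted p = 0.454). It was -0.36 with the smooth muscle score as a covariate and -0.40 without the 2 vehicle-treated males over 100 TPM of squamous genes, both short of the study threshold. It also fell short when replicate 1 or 2 of the vehicle group or 4 or 6 of the E2 group was left out, and ranged from -0.51 to -0.35 over the 12 fits without 1 library.

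The other genes differed little with E2. An unadjusted p-value under 0.05 was reached by 2 of the 35, Crot lower and Acaa1a higher (10.2% of all genes, 5.4% lower and 4.83% higher). Acaa1a was at 13.7, 18.2 and 22.5 TPM with E2 and 11.9, 18.0 and 24.8 TPM with vehicle, with a log2 fold change of 0.33 (SE 0.15, adjusted p = 0.476). Phyh was at 49.6, 61.1 and 75.4 TPM with E2, below the vehicle median of 74.0 TPM in 5 of 6 mice, with a log2 fold change of -0.20 (SE 0.11, adjusted p = 0.513). Angptl4 was at 1.38, 2.08 and 2.94 TPM with E2, within or just above the vehicle range, with a log2 fold change of 0.12 (SE 0.24). The median of the 35 was -0.01, with 17 above 0 and 18 below, beside a median of 0.00 and 50.2% above 0 over all genes. The HFD and E2 comparisons share the vehicle-treated HFD males, so that opposite signs of Crot and Phyh in them are not independent.

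Genes of the same pathway outside the 36 were read from a list of 60, of which 59 were in the files and 45 to 47 were tested in each comparison. It holds, among others, fatty acid carriers, thioesterases, peroxisomal oxidases and ketone enzymes. Past the study threshold on HFD were 1 of 46 genes in females, 4 of 46 in males and 4 of 47 over both sexes, all higher. These were 2.17%, 8.7% and 8.51%, beside 3.67%, 2.9% and 2.71% of all genes (2.95%, 1.25% and 2.13% higher). None passed the adjusted threshold (0.0199%, 0% and 0.418% of all genes). The median log2 fold changes were 0.04, 0.09 and 0.07. Creb3l3, a liver and gut transcription factor that acts with Ppara, was at 0, 0.322 and 0.699 TPM in CD males, at 0.670, 1.06 and 1.36 TPM in HFD males and at 1.03, 1.96 and 3.93 TPM with E2. Its log2 fold change was 1.32 (SE 0.32, adjusted p = 0.421) on HFD and 0.96 (SE 0.24, adjusted p = 0.389) with E2, and Acad11, an acyl-CoA dehydrogenase for long chains, was at 0.42 (adjusted p = 0.704) on HFD in males.

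Cd36, the fatty acid translocase of the cell membrane, was at 4.72, 7.98 and 9.14 TPM in CD females, 9.47, 10.4 and 18.3 TPM in CD males, 8.14, 11.2 and 18.5 TPM in HFD females and 8.85, 14.96 and 22.1 TPM in HFD males. The log2 fold change between CD females and CD males was -0.62 (SE 0.16, adjusted p = 0.0407). Cd36 was the single gene of the 45 tested past the adjusted threshold in that comparison (2.22%, beside 2.92% of all genes). Of the 45, 3 passed the study threshold (6.67%, beside 9.15% of all genes). Between HFD and CD females the log2 fold change of Cd36 was 0.60 (SE 0.17, adjusted p = 0.496). It was the single gene of the 46 tested past the study threshold in that comparison (2.17%, beside 3.67% of all genes). Adipocytes, vessels and macrophages express Cd36 too. Over both sexes the log2 fold change on HFD was 1.08 for Creb3l3 (adjusted p = 0.128) and 0.46 for Cd36 (adjusted p = 0.180). Acot4, a peroxisomal thioesterase, was the single gene of the list past the study threshold between the sexes on HFD, at -0.59 (adjusted p = 0.872). Acad11 was that of the interaction, at -0.45. Each was 2.13% of the 47 genes tested, beside 3.09% and 5.18% of all genes. With E2, 2 of the 46 genes tested passed the study threshold (4.35%, beside 5.87% of all genes). They were Creb3l3 and Pdk2, the second a kinase of pyruvate dehydrogenase like Pdk4, at 0.50 (adjusted p = 0.482).

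**Figure D4:**
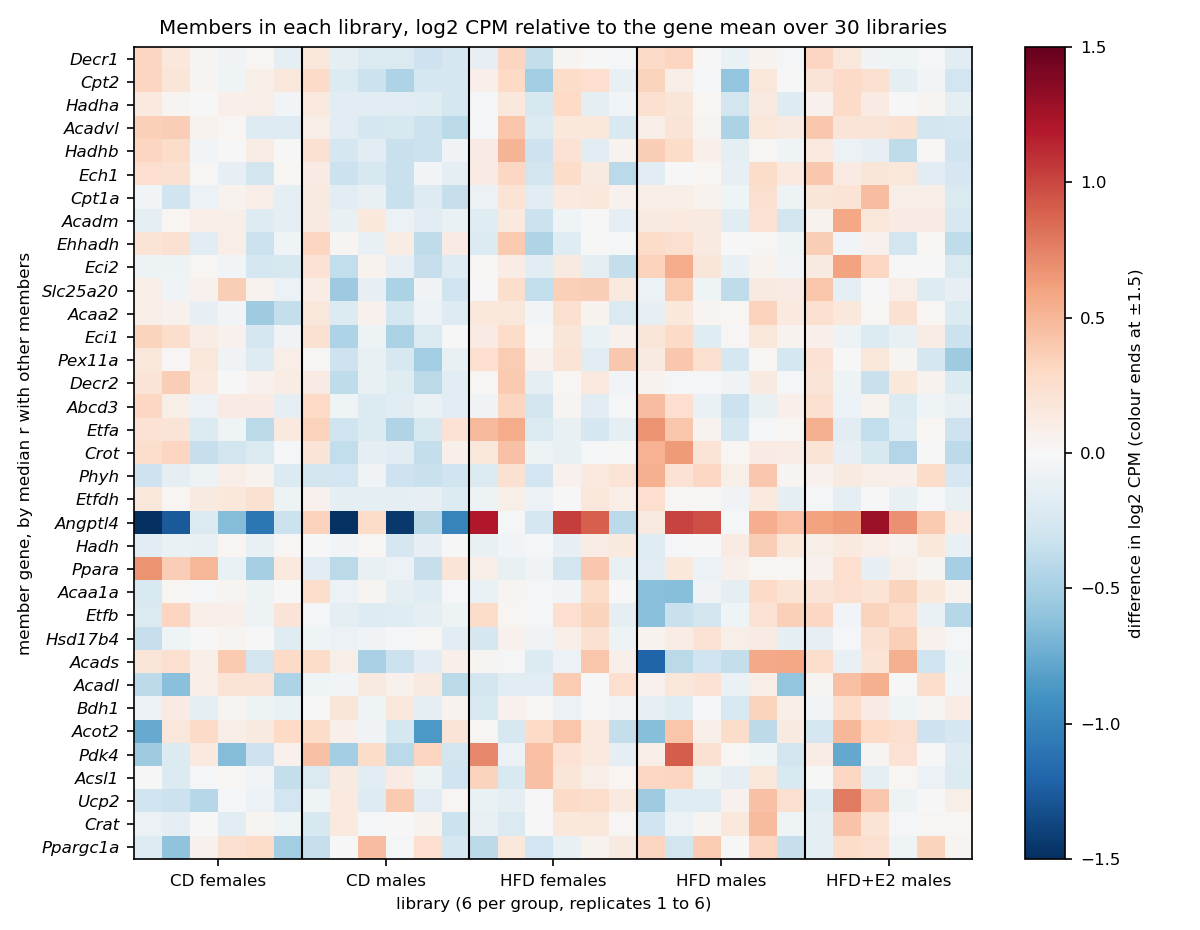
Log2 CPM of the 35 genes in each of the 30 libraries, as the difference from the mean of the gene (red higher, blue lower). Genes are ordered by their median correlation with the other genes of the list. Decr1, Cpt2 and Hadha at the top vary with most genes, replicate 1 of CD males is redder than the other CD males in the upper rows, and Angptl4 has the largest swings.

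The genes varied together to a moderate degree. After the mean of each group was subtracted, the 595 pairs of the 35 genes had a median correlation of 0.17 in log2 CPM over the 30 libraries, and 17.6% of the pairs were over 0.5. Pairs of a listed gene with any other gene had a median of 0.00, and 6.98% were over 0.5. The libraries share tissue composition, so the correlations are descriptions. The most alike were Hadhb and Decr1 (0.85) and Etfa and Crot (0.84), and the least alike Etfa and Crat (-0.72) and Bdh1 and Pdk4 (-0.65). With the mean of colonocyte markers 31 of the 35 had a positive correlation, led by Hadha (0.68) and Decr1 (0.66). With smooth muscle 22 were negative, down to Hadhb (-0.83), while Hsd17b4 (0.51) and Crat (0.50) were positive. Pdk4 was apart, with -0.38 for colonocyte and 0.49 for squamous genes.

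The exons of 11 of the 36 genes overlap a gene on the opposite strand in the GENCODE vM21 annotation, among them Acaa1a with Myd88, Acadvl with Dvl2, Crat with Dolpp1 and Ucp2 with Dnajb13. The libraries keep the strand, but the strand setting of the counting is not given in the sources used here, so reads of such partners may not be told apart. Neither Phyh, Angptl4 nor Pdk4 has such a partner, and that of Crot had at most 1 count.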

How the data were processed

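Total RNA of 30 mouse colons, 6 separate mice per group, was sequenced with a stranded kit after removal of ribosomal RNA. The submitters' processing notes name CASAVA, bcl2fastq 2.19.1.403, Trim Galore, STAR, featureCounts, StringTie and mm10. The authors deposited a table of raw counts per gene and TPM values per library, and neither was changed here. TPM served for levels. Raw counts were tested with edgeR 4.0.16 (filterByExpr, TMM, robust quasi-likelihood) in R 4.3.3, with Benjamini-Hochberg adjustment over all genes tested, and with DESeq2 1.42.0 as an alternative. The unadjusted p of the study threshold is a reading of the study's rule. Counts set the precision, which is lowest for Angptl4, with 5 to 110 counts per library. Correlations used log2 CPM with a prior count of 2, and scores of markers their mean. The script was checked on simulated counts. Named were the genes past the study threshold and otherwise the 3 with the lowest p-values, and of other pathway genes those past the adjusted threshold or else the 2 with the lowest p-values past the study threshold. Members and lists were chosen with earlier results of these data known. Leaving out squamous libraries and the adipocyte covariate were chosen after seeing the data. Same-numbered libraries were not treated as pairs in the main tests (see the closing section).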

Additional observations from a re-analysis of the deposited data

Results flagged for a closer look

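Among the genes named and the summed TPM of the 36 genes, 7 of 65 groups of 6 libraries had a library that stood apart, with a gap to the next one that was past the critical value of Dixon's test. Chance flags about 1 in 20 groups. Replicate 1 of CD males was the highest of its group in 4 of them. It stood at 81.4 TPM for Cpt1a (next 60.1), 29.9 TPM for Decr1 (next 21.7), 40.1 TPM for Etfdh (next 31.6) and 1440 TPM for the sum of the 36 genes (next 1140). Replicate 1 of HFD males stood at 107 TPM for Phyh (next 80.3) and 49.2 TPM for Etfdh (next 35.7). Replicate 6 of the males given E2 had the lowest Eci2, at 24.7 TPM (next 30.2).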

How the results depend on the processing

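Of 528 alternative values of the genes named, 464 kept their direction and side of the threshold, 27 passed it newly, 36 no longer passed it and 1 reversed (Cpt2 in CD females against males, -0.035 with the smooth muscle covariate). For the alternatives no share of all genes is given, so their numbers cannot be set beside those of all genes. The number of the 35 genes past the adjusted threshold went as follows. In HFD females it was 0, and 1 with DESeq2. In HFD males it was 0, and 1 with DESeq2, with all 30 libraries in the fit and with the adipocyte covariate. Between the sexes on CD it was 0, 2 with the replicate block and 0 to 2 without 1 library. Over both sexes it was 1, 2 with DESeq2, all 30 libraries or the smooth muscle covariate, 0 with a minimum of 10 counts (which leaves Angptl4 untested), the replicate block or the adipocyte covariate, and 0 to 2 without 1 library. The number past the study threshold was 2 in HFD females, 1 with a minimum of 10 counts, the smooth muscle or the adipocyte covariate, 0 with the squamous covariate or without the squamous libraries, and 1 to 2 without 1 library. In HFD males it was 3, 1 with a minimum of 10 counts and 2 to 3 without 1 library. Between the sexes on CD it was 0, 1 with each of the 3 covariates and 0 to 1 without 1 library. With E2 it was 1, 0 with the squamous or smooth muscle covariate or without the squamous libraries, and 0 to 2 without 1 library. Over both sexes it was 1, 0 with a minimum of 10 counts and 2 with the squamous covariate or without the squamous libraries. For the interaction it was 0, 1 with DESeq2, its size factors or all 30 libraries, and 0 to 2 without 1 library. The cause of these changes was not tested. Same-numbered libraries had correlations of -0.218 to 0.468, over 0.1 in 18 of 30 pairs. Libraries with different numbers were not correlated, so these values cannot settle whether the numbers mark pairs. With the replicate block, Angptl4 over both sexes had a log2 fold change of 1.28 (edgeR adjusted p = 0.0635). Low counts limit Angptl4, Acot2, Pdk4, Ppara and Pex11a, and tissue composition limits what whole colon can show.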
